A study of Mus musculus with 6 samples.

Results

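The 34 genes described here encode the enzymes that build purine and pyrimidine nucleotides, the serine, folate and one-carbon pathways that feed them, and the synthesis of polyamines. They were chosen by gene symbol from textbook pathways, with earlier results of these data known. The brightest single-gene probe set, by its average over the 6 arrays, stands for each gene. Of the 34 genes, 32 had a probe set that named a single gene, out of 18193 genes measured that way. Impdh2 and Sms were named only together with other genes or not at all, and they stand apart from the counts below. Expression had been measured on 6 Affymetrix mouse arrays, 2 in each of 3 groups. The MN1 group held GFP-positive marrow cells carrying pSF91-MN1-IRES-GFP, a gammaretroviral vector for MN1, a transcriptional cofactor that causes myeloid leukaemia in mice when overexpressed. The MN1VP16 group held GFP-positive marrow cells carrying pSF91-MN1VP16-IRES-GFP, which the labels do not describe further; VP16 is the name of a viral activator of transcription. In both groups the donors were C57BL/6J mice given 150 mg/kg 5-fluorouracil for 4 days. Their marrow was stimulated for 48 hours with interleukin 6, interleukin 3 and stem cell factor, transduced, and transplanted into syngeneic mice, and GFP-positive cells were sorted 4 weeks later. Gr1Mac denotes marrow cells positive for the myeloid surface markers Gr1 and CD11b; the labels leave unsaid whether their donors had been transplanted. Ages are not given, nor is it stated that each array had its own animal.

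Cells make nucleotides either from small precursors, by synthesis de novo, or by salvage of free bases and nucleosides. Purine rings are assembled on activated ribose with carbon units carried by folate, and those carbon units come largely from serine. Polyamines are small cations made from ornithine that bind nucleic acids and that dividing cells need. In marrow these pathways are most active in proliferating progenitors, and several of their genes, such as Cad and Odc1, are textbook targets of the transcription factor Myc.

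Promoter stretches were read from RefSeq windows of 250 bases before to 50 bases after an annotated transcription start (GRCm38.p6), which covered 31 of the 34 genes in 37 windows. The first pair below comes from Cad and Mthfd1, which limma called in each of the 3 comparisons and which hold none of the words searched. The others are the stretches that hold a searched word, shown in capitals, in a gene that was measured. The words were CACGTG, the E-box bound by Myc and related factors, and TTTCCCGC, TTTGGCGC or TTTCGCGC, forms of the E2F site, on either strand.
Cad, chr5:31054750-31054779, plus strand: cctgacgttgccggctgcttgcgccgtcgc
Mthfd1, chr12:76255082-76255231, plus strand: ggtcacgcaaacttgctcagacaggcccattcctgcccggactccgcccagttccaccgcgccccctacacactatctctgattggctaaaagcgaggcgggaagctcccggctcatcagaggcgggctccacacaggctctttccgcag
Ppat, chr5:76951771-76951800, minus strand: gagcagaccgcGCGGGAAAaaagggcagtg
Ppat, chr5:76951718-76951747, minus strand: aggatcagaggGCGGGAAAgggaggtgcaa
Prps2, chrX:167382700-167382729, minus strand: cctgctgctgcgtTTTCCCGCttcaccagc
Paics, chr5:76951087-76951116, plus strand: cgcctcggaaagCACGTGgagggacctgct
Atic, chr1:71557137-71557166, plus strand: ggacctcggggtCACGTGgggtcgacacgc
Tyms, chr5:30073669-30073698, minus strand: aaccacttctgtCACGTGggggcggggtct

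The E-box was present in 5 of the 37 windows (13.5%), those of Paics, Atic, Tyms, Impdh2 and Sms, against 2349 of 32851 windows of all genes (7.15%). An E2F word was present in 2 windows (5.41%), in Prps2 after the start and in Ppat at -211 and -158 bases from it, against 606 of all windows (1.84%). The word TTGCATCA, one part of the element bound by the amino acid response factor Atf4, was in 0 of the 37 windows and in 294 of all windows (0.895%). These are matches of letters and not sites shown to be bound. Ppat and Paics, which encode neighbouring steps of purine synthesis, lie head to head on chromosome 5: the Ppat start at 76951578 on the minus strand is 276 bases from the Paics start at 76951302 on the plus strand, so their 5′ ends overlap. Windows of Dhodh, Pfas and Srm were not used here.

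Values are log2 units of the authors' RMA summary, and a gene is called where limma's adjusted p, over all 18193 genes, is under 0.05. The arrays of a group resembled each other, with correlations over genes of 0.990 in MN1, 0.980 in MN1VP16 and 0.984 in Gr1Mac. Xist, which marks female cells, lay at 12.36 and 12.59 in MN1 and at 5.53 and 5.84 in MN1VP16, while Gr1Mac array 1 read 10.44 and array 2 read 5.83. The reading of 5.84, taken on an array of Xist-low cells, also serves here as a guide to background, and 31 of the 32 genes had a mean above it. The 9 hybridisation control features averaged 12.15 to 12.45 on both MN1 arrays and MN1VP16 array 1, and 10.61 to 11.02 on the other 3 arrays. Itgam, which encodes CD11b, read 10.95 and 10.92 in Gr1Mac, 9.44 and 8.88 in MN1VP16 and 7.67 and 6.95 in MN1; Ly6g, a Gr1 gene, had no single-gene probe set. In these bulk samples, fewer cells of a type and less RNA per cell cannot be told apart.

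The first comparison set MN1 cells against Gr1-positive, CD11b-positive marrow cells. Nucleotide, serine, one-carbon and polyamine synthesis genes were higher in MN1 in 26 of 32 cases and lower in 1, Upp1. Over all genes 17.3% were called higher and 12% lower. The difference was at least 2-fold for 25 of the 26, and the median over the 32 genes was 2.13 log2 units against -0.06 over all genes. Every de novo pyrimidine gene, 10 of 11 de novo purine genes, 4 of 5 one-carbon genes, all 3 serine genes and both polyamine genes were higher, whereas among deoxynucleotide and salvage genes 3 of 7 were higher and 1 lower. The 5 genes not called were Adss, Rrm2, Tk1, Dck and Mthfd2.

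**Figure D1:**
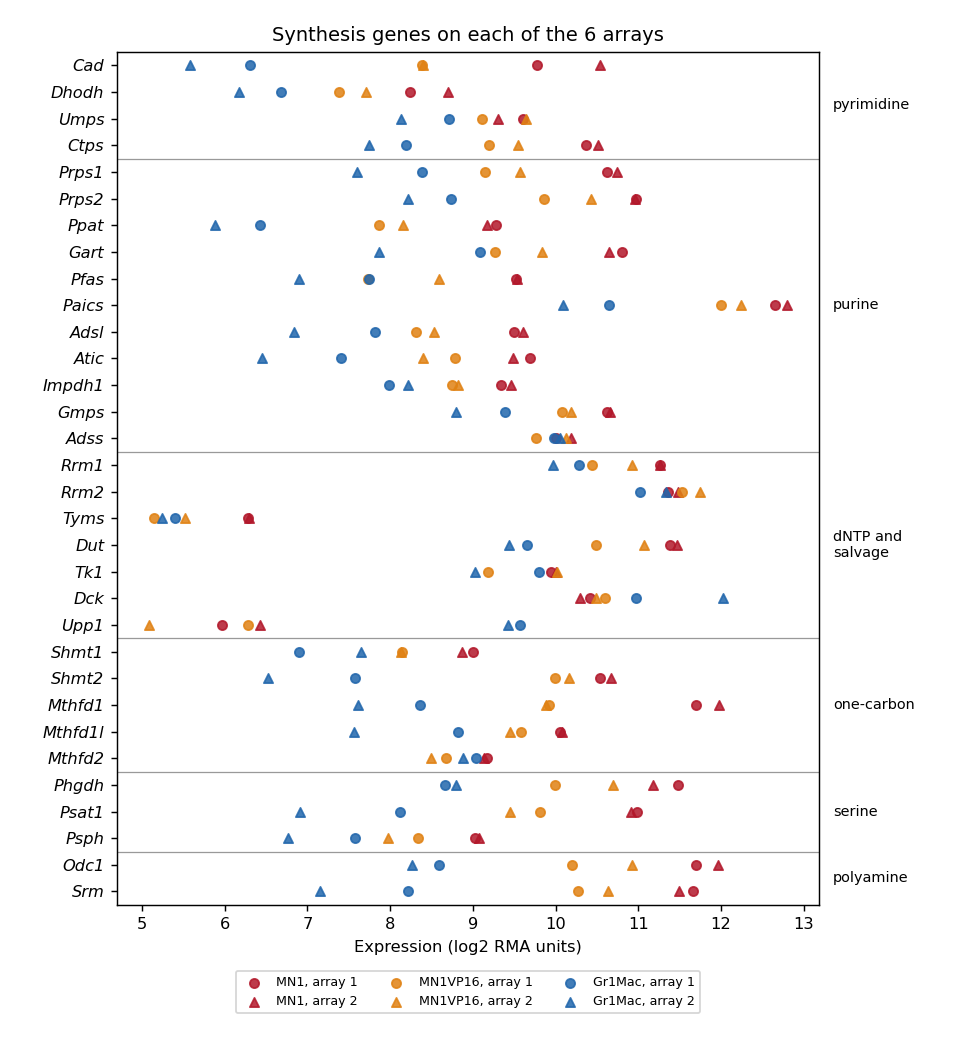
Log2 RMA expression (horizontal axis) of the 32 measured synthesis genes, 1 row per gene and grouped by pathway; each point is 1 array, coloured by group and shaped by replicate number. For 23 genes every MN1 array lies right of every MN1VP16 array, and these lie right of both Gr1Mac arrays; Upp1 and Dck read highest in Gr1Mac.

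In pyrimidine synthesis, Cad carries out the opening steps of the ring. It read 9.78 and 10.54 in MN1, 8.38 and 8.40 with MN1VP16, and 6.31 and 5.58 in Gr1Mac. The groups did not overlap, and Cad was 18.6-fold higher in MN1 than in Gr1Mac (4.21 ± 0.33 log2 units, SE; limma adjusted p = 0.00131). Gr1Mac array 2 lay under the background guide, so folds of Cad against Gr1Mac rest partly on a reading at background. Ctps, which turns UTP into CTP, read 10.37 and 10.51 in MN1, 9.19 and 9.54 with MN1VP16, and 8.19 and 7.74 in Gr1Mac. Its difference was 2.47 ± 0.22 (adjusted p = 0.00157). Dhodh, the mitochondrial step of the pathway, read 8.24 and 8.70 in MN1 and 6.68 and 6.17 in Gr1Mac, 4.13-fold higher (adjusted p = 0.00350). Umps, which completes UMP, read 9.61 and 9.30 in MN1 and 8.71 and 8.13 in Gr1Mac, and was 2.05-fold higher (adjusted p = 0.0394). The Umps call was lost without either MN1 array, without Gr1Mac array 2 and under 6 other settings.

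Purine synthesis starts from phosphoribosyl pyrophosphate, made by the products of the X-linked genes Prps1 and Prps2. Prps1 read 10.62 and 10.75 in MN1, 9.15 and 9.57 with MN1VP16, and 8.38 and 7.59 in Gr1Mac, which made it 6.49-fold higher in MN1 than in Gr1Mac (adjusted p = 0.00242). Prps2 was 5.61-fold higher (adjusted p = 0.00216). Other single-gene probe sets of Prps2 were also called, with a smaller fold of 2.15 and, against Gr1Mac readings under the background guide, at least 1.60. Ppat, the committing step, read 9.28 and 9.17 in MN1, 7.86 and 8.16 with MN1VP16, and 6.42 and 5.88 in Gr1Mac. Its difference, 3.07 ± 0.23 log2 units or 8.42-fold (adjusted p = 0.00123), was the largest of the 11 purine genes. Its head-to-head neighbour Paics read 12.66 and 12.80 in MN1, 12.001 and 12.24 with MN1VP16, and 10.64 and 10.09 in Gr1Mac, and was 5.13-fold higher (adjusted p = 0.00181). For both genes the arrays kept the order MN1, MN1VP16, Gr1Mac with no overlap.

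The other enzymes on the way to IMP were also called higher in MN1. Gart, which acts at several steps, read 10.80 and 10.65 in MN1 against 9.08 and 7.86 in Gr1Mac, with Gr1Mac array 1 the higher of the pair (4.75-fold, adjusted p = 0.0104). Other single-gene probe sets of Gart gave smaller folds, down to 1.17, which was not called. Pfas read 9.52 and 9.53 in MN1 against 7.74 and 6.89 in Gr1Mac (4.63-fold, adjusted p = 0.00793). Adsl, which acts on the way to IMP and again on the way to AMP, was 4.66-fold higher (adjusted p = 0.00511). Atic, which closes the purine ring, read 9.69 and 9.48 in MN1 against 7.41 and 6.46 in Gr1Mac and was 6.28-fold higher (adjusted p = 0.00335). The Gart call was lost without either MN1 array, and the Pfas call without MN1 array 2.

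Past IMP, both measured genes of the guanine branch were called, and Adss of the adenine branch, which it shares with Adsl, was not. On the guanine branch, Impdh1 read 9.34 and 9.47 in MN1 against 7.98 and 8.22 in Gr1Mac (2.47-fold, adjusted p = 0.00336), and Gmps 10.62 and 10.65 against 9.39 and 8.80 (2.91-fold, adjusted p = 0.00510). Adss, which makes the substrate on which Adsl then acts, read 10.01 and 10.18 in MN1, 9.76 and 10.13 with MN1VP16, and 9.98 and 10.05 in Gr1Mac. The Adss arrays of the 3 groups overlapped, and its difference was 0.08 log2 units with a 95% interval from -0.37 to 0.54. That interval leaves out the sizes found for every other measured purine gene, though no difference between genes was tested.

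Deoxynucleotide genes divided. Dut, which removes dUTP, read 11.39 and 11.46 in MN1, 10.49 and 11.06 with MN1VP16, and 9.65 and 9.44 in Gr1Mac, and was 3.67-fold higher in MN1 than in Gr1Mac (adjusted p = 0.00313). Ribonucleotide reductase, which makes deoxynucleotides, has a large subunit, Rrm1, and a small one, Rrm2. Rrm1 read 11.27 on both MN1 arrays against 10.28 and 9.96 in Gr1Mac (2.21-fold, adjusted p = 0.0118). Rrm2 read 11.36 and 11.47 in MN1, 11.53 and 11.74 with MN1VP16, and 11.02 and 11.34 in Gr1Mac, a difference of 0.24 log2 units (95% interval -0.21 to 0.69; adjusted p = 0.392). MN1VP16 was the highest group, and the difference between MN1 and Gr1Mac turned to -0.015 when each array was centred on its median and to -0.089 without probe sets that can match several transcripts.

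The salvage genes included those that were highest in Gr1Mac. Upp1, which splits uridine into uracil and a sugar phosphate, read 9.57 and 9.42 in Gr1Mac, 5.96 and 6.43 in MN1 and 6.28 and 5.08 in MN1VP16. It was 9.85-fold lower in MN1 than in Gr1Mac (-3.30 ± 0.40 log2 units; adjusted p = 0.00304). Dck, the deoxycytidine kinase, read 10.97 and 12.02 in Gr1Mac, 10.60 and 10.49 in MN1VP16 and 10.41 and 10.29 in MN1, so all 6 arrays lay in the reverse of the usual order. With this probe set Dck narrowly missed the call (-1.14 ± 0.34; adjusted p = 0.0507). In a fit over all probe sets another Dck set was called lower than in Gr1Mac, by -1.60 in MN1 and -1.43 in MN1VP16. A further Dck set was not called in either. Tk1, the thymidine kinase of dividing cells, read 9.95 and 10.01 in MN1, 9.19 and 10.01 with MN1VP16, and 9.80 and 9.03 in Gr1Mac. MN1VP16 overlapped both other groups. Both MN1 arrays lay above both Gr1Mac arrays, but the difference was not called (0.57 log2 units, interval -0.31 to 1.44).

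Tyms, which makes thymidylate, read 6.29 on both MN1 arrays, 5.15 and 5.52 in MN1VP16 and 5.405 and 5.25 in Gr1Mac. The last 2 groups lay under the background guide, so the called rise in MN1 is given as at least 1.37-fold (adjusted p = 0.0120). The calls of Tyms and Rrm1 were lost without either MN1 array and without Gr1Mac array 2.

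One-carbon genes held some of the largest differences. Mthfd1, the cytosolic enzyme that interconverts folate carbon units, read 11.69 and 11.97 in MN1, 9.92 and 9.89 with MN1VP16, and 8.36 and 7.61 in Gr1Mac. The 3 groups were far apart beside the spread within them, and the MN1 level was 14.4-fold that of Gr1Mac (3.85 ± 0.27 log2 units; adjusted p = 0.00117). Shmt2, which takes a carbon from serine in mitochondria, read 10.54 and 10.67 in MN1, 9.99 and 10.16 with MN1VP16, and 7.58 and 6.52 in Gr1Mac (11.8-fold, adjusted p = 0.00180). Other single-gene probe sets of Shmt2 gave smaller folds, from 1.56, which was not called, to 6.59. Its cytosolic counterpart Shmt1 was 3.17-fold higher (adjusted p = 0.00619), and Mthfd1l, which releases formate from mitochondria, 3.67-fold higher (adjusted p = 0.0160), a call lost without either MN1 array. Mthfd2, the mitochondrial dehydrogenase between these steps, read 9.17 and 9.14 in MN1, 8.68 and 8.49 with MN1VP16, and 9.04 and 8.88 in Gr1Mac. Its difference of 0.19 log2 units (interval -0.20 to 0.58; adjusted p = 0.445) was not called and turned to -0.069 after centring.

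All 3 serine synthesis genes were called higher in MN1 than in Gr1Mac. Phgdh, the first enzyme, read 11.48 and 11.18 in MN1, 9.99 and 10.69 with MN1VP16, and 8.66 and 8.80 in Gr1Mac (6.07-fold, adjusted p = 0.00208). Its other 3 single-gene probe sets had the same call with folds from 3.33 to 25.7, so the size for Phgdh depends on the probe set. Psat1, the next enzyme, read 10.98 and 10.92 in MN1, 9.82 and 9.45 with MN1VP16, and 8.12 and 6.92 in Gr1Mac (10.8-fold, adjusted p = 0.00263). Psph, which releases serine, read 9.02 and 9.08 in MN1 and 7.57 and 6.77 in Gr1Mac (3.68-fold, adjusted p = 0.00612).

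For polyamines, Odc1 makes putrescine and Srm turns it into spermidine. Odc1 read 11.70 and 11.97 in MN1, 10.20 and 10.92 with MN1VP16, and 8.59 and 8.27 in Gr1Mac, a difference of 3.40 ± 0.28 log2 units (10.6-fold, adjusted p = 0.00137). Srm read 11.66 and 11.49 in MN1, 10.27 and 10.64 with MN1VP16, and 8.22 and 7.15 in Gr1Mac (14.8-fold, adjusted p = 0.00168). The median of the pair, 3.65 log2 units, was the largest of the 6 pathways.

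**Figure D2:**
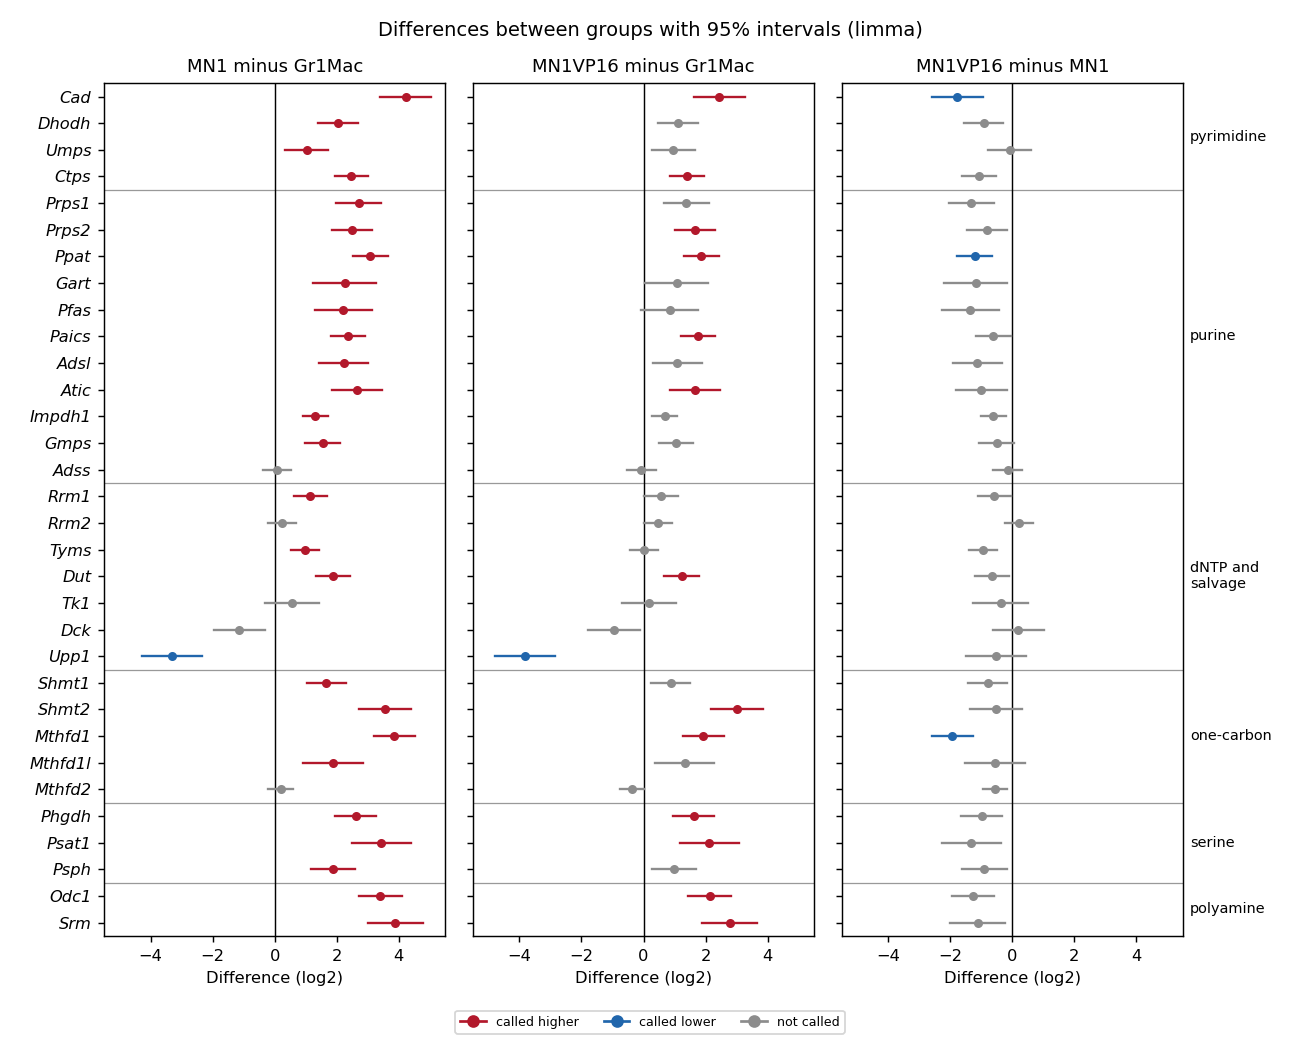
Differences in log2 units (horizontal axes) between group means for the 32 genes in the 3 comparisons, with 95% limma intervals; red marks genes called higher, blue genes called lower and grey genes not called. MN1 minus Gr1Mac has 26 red genes and 1 blue, MN1VP16 minus Gr1Mac 13 red and 1 blue, and MN1VP16 minus MN1 3 blue, Cad, Ppat and Mthfd1.

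Of the 27 called genes, 21 were called whichever array was left out, and the other 6, Umps, Gart, Pfas, Rrm1, Tyms and Mthfd1l, each lost the call without at least 1 MN1 array. The hybridisation control split, entered as a term, left 15 genes higher and the same 1 lower, with a member median of 2.40. Both MN1 arrays were control-high and both Gr1Mac arrays control-low, so that fit takes the control difference from MN1VP16 arrays 1 and 2 alone. Apart from that pair, the groups and the control split cannot be told apart in this comparison. A second probe set above background existed for 19 genes, 32 sets in all, of which 27 had the same call and 0 the opposite one. Centring each array on its median moved all differences by -0.26 log2 units and left a member median of 1.87, while the share of calls over all genes that were higher went from 59% to 38.3%.

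In the second comparison, MN1VP16 cells against Gr1Mac cells, 13 of the 32 genes were higher and 1 lower, again Upp1, where 3.66% of all genes were higher and 2.11% lower. The median difference was 1.11 log2 units, against -0.00051 over all genes. Called higher were Cad and Ctps, Prps2, Ppat, Paics and Atic, Dut, Shmt2 and Mthfd1, Phgdh and Psat1, and Odc1 and Srm. By the probe sets used, Shmt2 had the largest rise, 3.02 ± 0.34 log2 units or 8.13-fold (adjusted p = 0.0156). Srm followed at 6.83-fold (adjusted p = 0.0204) and Cad at 5.45-fold (adjusted p = 0.0224). That ranking depends on the probe set: other Shmt2 sets gave folds from 1.26 to 4.94, and another Phgdh set gave 9.99. Odc1 was 4.38-fold, Psat1 4.33-fold and Mthfd1 3.79-fold higher (adjusted p = 0.0207, 0.0384 and 0.0238). In purine synthesis the folds were 3.63 for Ppat, 3.37 for Paics, 3.19 for Prps2 and 3.16 for Atic. For Prps2, another single-gene probe set gave 1.69 and was not called. A further Prps2 set, not called either, had the means of both groups under the background guide. Of the 32 second probe sets above background, 24 had the same call and 0 the opposite one. For 5 only the set used was called, and for 3 only the second set.

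Several genes missed the threshold in MN1VP16 with both arrays above both Gr1Mac arrays. Prps1 differed by 1.37 log2 units (adjusted p = 0.0547), Gmps by 1.04 (0.0562), Dhodh by 1.12 (0.0645) and Impdh1 by 0.69 (0.0681). Gart, at 9.27 and 9.83 against 9.08 and 7.86, and Pfas, at 7.74 and 8.60 against 7.74 and 6.89, were not called (adjusted p = 0.188 and 0.243). Upp1 was at least 10.8-fold lower, its MN1VP16 mean being under the background guide (adjusted p = 0.0140).

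The counts of this comparison rested on single arrays. Without Gr1Mac array 2, which read lower than array 1 for 26 of the 32 genes, 1 gene stayed higher, Shmt2. Without Gr1Mac array 1 there were 17. Leaving out MN1VP16 array 2 left 2 genes higher and leaving out array 1 left 8, while without either MN1 array, which enters only the shared spread, there were 6. The hybridisation control split as a term gave the same fit as leaving out MN1VP16 array 1. Over the 4 arrays compared alone 6 genes were higher, which is the same fit as leaving out either MN1 array. The direction of each of the 14 called genes was the same under all these settings. Centring took the share of all calls that were higher from 63.4% to 35.9%, and the member median to 0.90.

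In the third comparison, MN1VP16 against MN1, the synthesis genes were lower in MN1VP16 as far as they were called: 3 of 32 were lower and 0 higher, where 2.7% of all genes were lower and 1.15% higher. The median was -0.86 log2 units against 0.03 over all genes, and 23 of the 32 genes had an unadjusted limma p under 0.05. Mthfd1 was 3.80-fold lower (-1.93 ± 0.27 log2 units; adjusted p = 0.0286), Cad 3.40-fold lower (-1.77 ± 0.33; adjusted p = 0.0491) and Ppat 2.32-fold lower (-1.22 ± 0.23; adjusted p = 0.0491). Near the threshold lay Tyms (adjusted p = 0.0522), for which no size is given because both MN1VP16 readings were under the background guide, Ctps (-1.07; 0.0571), Odc1 (-1.27; 0.0668) and Prps1 (-1.33; 0.0677). The genes with a positive difference were Rrm2, at 0.22, and Dck, at 0.19, neither called. For Umps the difference was -0.08 with an interval from -0.77 to 0.62, and for Shmt2 -0.53 with an interval from -1.37 to 0.30.

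None of the 3 calls held without any 1 of the 4 MN1 and MN1VP16 arrays, or with the control split as a term. Both MN1 arrays were Xist-high and both MN1VP16 arrays Xist-low, so the construct and the sex pattern of the cells cannot be told apart in this comparison except through the Gr1Mac pair. With the sex pattern as a term in limma, 0 of all genes were called, with 2501 of them and 5 of the 32 synthesis genes at an unadjusted p under 0.05; the median of the 32 was -0.34, and Shmt2 and Mthfd1l turned to 0.52 and 0.71. That fit takes the sex difference from Gr1Mac arrays 1 and 2 alone.

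Put side by side, and sharing arrays between comparisons, the 3 groups of readings were mostly ordered. In 23 of the 32 genes every MN1 array was above every MN1VP16 array and these above both Gr1Mac arrays, which held for 14.1% of all genes. Of the exceptions, Dck had the reverse order, Rrm2 was highest in MN1VP16 and lowest in Gr1Mac, and Mthfd2 was highest in MN1 and lowest in MN1VP16, each with no overlap of the groups. In Umps, Pfas, Adss, Tyms, Tk1 and Upp1 arrays of different groups overlapped. Within groups the genes moved little between the MN1 arrays, with a median of -0.047 for array 1 minus array 2. It was -0.27 in MN1VP16 and 0.54 in Gr1Mac, while over all genes these medians were -0.0033, 0.014 and 0.035.

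Other genes of the same pathways were called in both directions. Their lists, too, were drawn up with earlier results of these data known. Whether they differed from the synthesis genes was not tested. Of 79 listed, 68 were measured. In MN1 against Gr1Mac 22 were higher and 14 lower (17.3% and 12% over all genes), with a median of 0.15 log2 units. In MN1VP16 against Gr1Mac 9 were higher and 4 lower (3.66% and 2.11% over all genes), with a median of 0.05, and in MN1VP16 against MN1, 2 were higher and 8 lower (1.15% and 2.7% over all genes; median -0.08). Among purine salvage and breakdown genes 4 were higher and 4 lower of 19 in MN1 against Gr1Mac, and among folate uptake and one-carbon genes 8 were higher and 2 lower of 16.

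**Figure D3:**
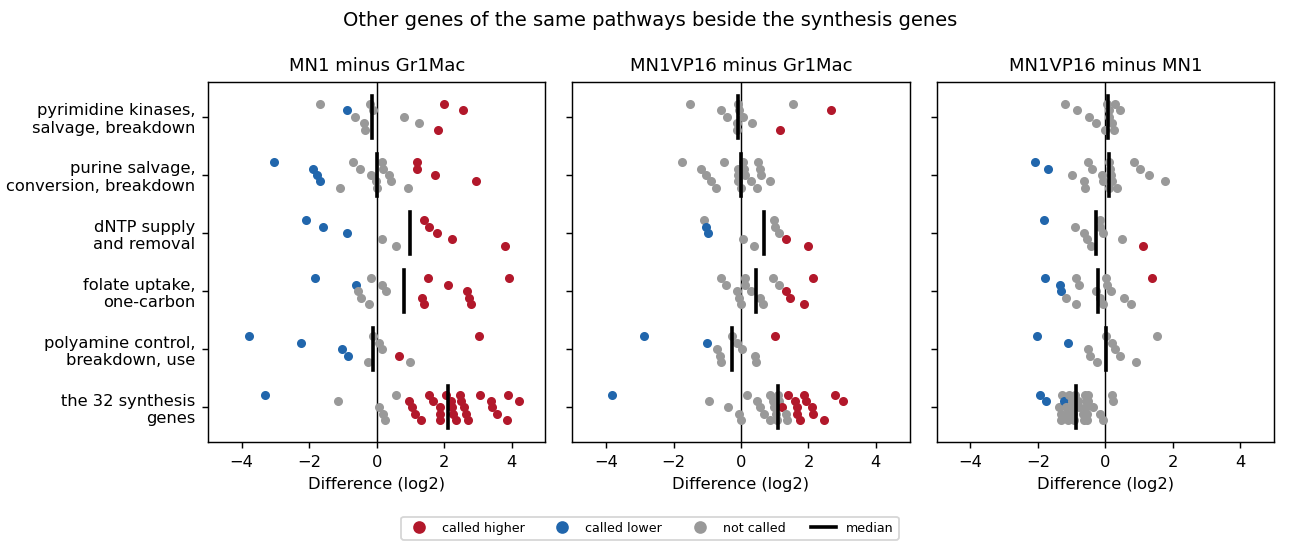
Differences in log2 units (horizontal axes) for 68 other genes of the pathways in 5 lists and, in the lowest row, for the 32 synthesis genes; each point is a gene, black bars are medians, and colours mark limma calls. In MN1 minus Gr1Mac the synthesis genes have a median of 2.13 and the other genes of 0.15 in all, with calls on both sides of 0.

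Among the folate genes, Slc19a1, the reduced folate carrier, read 9.65 and 9.46 in MN1, 8.30 and 8.16 with MN1VP16, and 6.59 and 6.95 in Gr1Mac. It was called in each comparison, 6.88-fold higher in MN1 and 2.74-fold higher in MN1VP16 than in Gr1Mac, and 2.51-fold lower in MN1VP16 than in MN1 (adjusted p = 0.00111, 0.0204 and 0.0286). Gcsh, a glycine cleavage subunit, was 15.1-fold higher in MN1 and 4.36-fold higher in MN1VP16 than in Gr1Mac, and 3.47-fold lower in MN1VP16 than in MN1 (adjusted p = 0.00140, 0.0270 and 0.0466). Mtrr, which keeps methionine synthase active, was at least 2.62-fold higher in MN1, its Gr1Mac readings of 4.53 and 4.57 being under the background guide.

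Deoxynucleotide supply and removal genes went both ways in MN1 against Gr1Mac, 5 higher and 3 lower of 10 (17.3% and 12% over all genes). Samhd1, which breaks down deoxynucleotides, read 10.94 and 10.59 in MN1, 12.02 and 11.73 with MN1VP16, and 12.96 and 12.77 in Gr1Mac. It was 4.28-fold lower in MN1 and 1.99-fold lower in MN1VP16 than in Gr1Mac (adjusted p = 0.00182 and 0.0483), and 2.15-fold higher in MN1VP16 than in MN1 (adjusted p = 0.0466). Rrm2b encodes the p53-induced small subunit of ribonucleotide reductase. It was 1.86-fold lower in MN1 and 2.06-fold lower in MN1VP16 than in Gr1Mac (adjusted p = 0.0181 and 0.0396). Between MN1VP16 and MN1 it was not called. Dctd, which supplies the substrate of Tyms, read 8.03 and 7.87 in MN1, 5.98 and 6.31 with MN1VP16, and 4.17 and 4.14 in Gr1Mac, at least 4.32-fold higher in MN1 than in Gr1Mac.

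In purine salvage, Adk, the adenosine kinase, read 12.41 and 12.76 in MN1, 10.88 and 10.10 with MN1VP16, and 9.54 and 9.74 in Gr1Mac. It was 7.70-fold higher in MN1 than in Gr1Mac (adjusted p = 0.00191) and 4.28-fold lower in MN1VP16 than in MN1 (adjusted p = 0.0284). Itpa, which clears inosine triphosphate, was 2.30-fold higher in MN1 than in Gr1Mac. Ak3, a mitochondrial adenylate kinase family member, was 3.35-fold higher in MN1 than in Gr1Mac (adjusted p = 0.00668). In MN1VP16 it was 3.24-fold lower than in MN1, and its difference from Gr1Mac, 0.046 log2 units, was not called. Of the pyrimidine kinases, Nme1 was 3.99-fold and the uridine kinase Uck2 5.89-fold higher in MN1 than in Gr1Mac, and in MN1VP16 the folds were 2.22 and 6.36.

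Around the polyamines, Mtap, which recovers methionine from a by-product of spermidine synthesis, read 10.47 and 10.77 in MN1, 8.62 and 8.58 with MN1VP16, and 7.80 and 7.38 in Gr1Mac (8.17-fold higher in MN1 than in Gr1Mac, adjusted p = 0.00111). Arg2, an arginase that makes ornithine, moved the other way, at 7.43 and 6.31 in MN1, 7.56 and 8.02 with MN1VP16, and 10.52 and 10.80 in Gr1Mac. It was 13.8-fold lower in MN1 and 7.32-fold lower in MN1VP16 than in Gr1Mac (adjusted p = 0.00207 and 0.0217). Smox, which oxidises spermine, was lower in MN1VP16 than in either other group, 2.02-fold against Gr1Mac and 2.13-fold against MN1. These counts of other pathway genes moved with single arrays. In MN1 against Gr1Mac they were 14 higher and 9 lower without MN1 array 1, 12 and 5 without MN1 array 2, and 18 and 9 without Gr1Mac array 2. In MN1VP16 against Gr1Mac at most 2 were higher and 1 lower without any array other than Gr1Mac array 1, and 10 and 0 without that one. In MN1VP16 against MN1 at most 4 stayed lower without any 1 of the 6 arrays.

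Cell type markers went both ways: on average erythroid and progenitor markers were highest in MN1, and granulocyte, monocyte and macrophage markers were lowest there. The mean of 12 erythroid markers was 10.63 and 11.25 in MN1, 8.996 and 8.13 with MN1VP16, and 6.92 and 6.72 in Gr1Mac. Of the 12, 10 were higher in MN1 than in Gr1Mac, where 17.3% of all genes were higher. All 8 progenitor markers were higher in MN1, among them Kit, the stem cell factor receptor, at 11.12 and 11.24 in MN1, 9.68 and 9.81 with MN1VP16, and 8.34 and 8.996 in Gr1Mac. The mean of 9 monocyte and macrophage markers was 8.02 and 7.88 in MN1, 11.09 and 10.35 with MN1VP16, and 11.09 and 10.21 in Gr1Mac, and Csf1r followed it at 9.98 and 9.67, 12.88 and 12.34, and 13.18 and 12.60. Granulocyte markers, 11 in number, were called lower in MN1 than in Gr1Mac in 8 cases, where 12% of all genes were lower. They averaged 11.69 to 12.57 in MN1, 12.84 to 13.04 in MN1VP16 and 13.86 to 13.95 in Gr1Mac. The 6 lymphocyte markers averaged 4.96 to 5.81 on all arrays.

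Proliferation markers differed less. Of 24 cell cycle genes, 8 were higher and 1 lower in MN1 than in Gr1Mac (17.3% and 12% over all genes), with a median of 0.46 log2 units. Of the 32 synthesis genes 26 were higher and 1 lower, with a median of 2.13. Mki67, expressed in dividing cells, read 12.55 and 12.42 in MN1, 11.99 and 12.32 with MN1VP16, and 12.37 and 12.24 in Gr1Mac and was not called. Pcna, the replication clamp, was 1.82-fold higher in MN1 than in Gr1Mac (adjusted p = 0.0447). Myc itself read 11.17 and 10.91 in MN1, 9.22 and 8.86 with MN1VP16, and 7.07 and 6.23 in Gr1Mac, in the order shown by 23 of the synthesis genes. The part of erythroid, progenitor and myeloid cell content, of proliferation and of Myc in the differences of the synthesis genes was not tested.

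**Figure D4:**
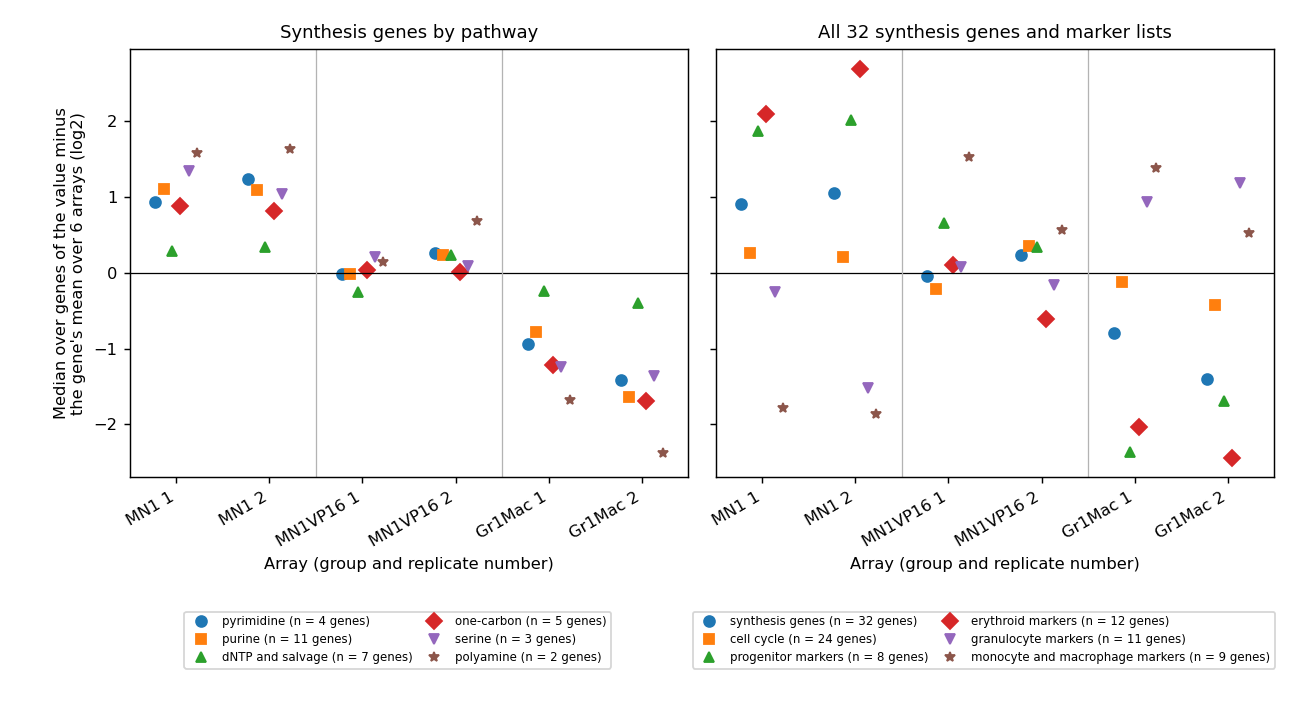
Median over genes of the log2 value minus the gene's mean over the 6 arrays (vertical axis) on each array, for the 6 pathways of synthesis genes (left) and for all 32 with marker lists (right). The 32 genes lie at 0.91 and 1.05 in MN1, -0.04 and 0.24 with MN1VP16, and -0.79 and -1.40 for Gr1Mac; the cell cycle genes lie between -0.42 and 0.35 on every array.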

How the data were processed

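Per the labels' protocols, TRIZOL extracts of 6 samples were labelled with a 3' IVT kit. The deposited values are log2 expression of probe sets. RMA, named without a version in the submitters' processing notes, corrects background and equalises the arrays' distributions, which compresses differences of dim genes and hides a shift shared by all genes. Of 45037 ordinary probe sets, 34945 named exactly 1 gene and were used. All 6 arrays entered one model with group as its only term (limma 3.58.1, R 4.3.3, lmFit then eBayes), with Benjamini-Hochberg adjustment over 18193 genes within a contrast. Errors are limma standard errors, and with 3 residual and 3.03 prior degrees of freedom the number of arrays limits the precision. Since separate mice are not stated, the p-values reflect no more than the scatter among these 6 arrays, and that scatter may be technical. Where the dimmer group lay at or under 5.84 log2 units, a fold is written as a bound against the higher of that level and the array's own reading. The synthesis genes and all other lists were chosen with earlier results of these data known. All synthesis genes were described; of the other pathway lists, the text names at least the 2 called genes with the lowest adjusted p per list and comparison, and every one where 3 or fewer were called; defining markers and Myc were added. The correlations of same-numbered arrays' deviations from their group means were -0.046, -0.049 and 0.080, so the numbers did not pair the arrays. Sequences are RefSeq's. The fit was tested on simulated data.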

Additional observations from a re-analysis of the deposited data

Results flagged for a closer look

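Probe sets that match a synthesis gene together with a pseudogene or relative were outside the tests above, and several carried signal that differed between MN1 and Gr1Mac. For Sms, which makes spermine, the 3 probe sets shared with Sms-ps were 1.27, 1.59 and 0.474 log2 units higher in MN1, the last one below the background guide on every array and thus no measured difference. The set shared by Tyms and Tyms-ps read 10.27 and 10.36 in MN1 and 9.46 and 8.84 in Gr1Mac, 1.17 higher, on a brighter scale than the single-gene set of Tyms. The sets shared by Phgdh with Gm8096 and with Gm6756 read 4.71 and 4.24 higher, but their Gr1Mac means lay under the background guide, so only bounds of at least 13.6-fold and 12.9-fold hold. The set shared by Prps1 and Prps1l3 was 2.28 higher. Which of the named genes gave the signal cannot be told apart.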

How the results depend on the processing

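No called synthesis gene changed direction under any of the 16 alternatives, and of the called genes 14 of 27 (MN1 minus Gr1Mac), 1 of 14 (MN1VP16 minus Gr1Mac) and 0 of 3 (MN1VP16 minus MN1) were called under all of those that measured them. Odc1, Phgdh and Srm, among the 14, and Psat1, Mthfd1l and Dck have no set left without _x_at, _s_at and _a_at sets. In MN1 minus Gr1Mac, the genes higher went from 26 to 15 with the control feature split and the genes lower from 1 to 2 with the mean of all probe sets, without the dimmest 40% of genes, with centring and with an intensity trend, Dck being added; leaving out each array gave 20 to 26 and 1 to 2. In MN1VP16 minus Gr1Mac the genes higher went from 13 to 8 without _x_at, _s_at and _a_at sets (Dut lost its call, and Odc1, Phgdh, Psat1 and Srm were not measured), to 6 over 4 arrays and to 8 with the control split, those lower from 1 to 2 with the sex term; leaving out each array gave 1 to 17 and 0 to 2. In MN1VP16 minus MN1 the genes lower went from 3 to 1 without _x_at, _s_at and _a_at sets, to 1 with the replicate number as a block, and to 0 with the sex term or the control split; leaving out each array gave 0 to 4. The block, for numbers that did not pair the arrays, left 25 and 1 genes in MN1 minus Gr1Mac and 12 and 1 in MN1VP16 minus Gr1Mac. The 16 alternatives are not all separate fits. For a comparison, the 4-array fit equals leaving out an array of the group not compared. Except where they follow the groups compared, the control split equals leaving out an MN1VP16 array and the sex term a Gr1Mac array.

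For the other pathway genes, the control split gave 9 higher and 6 lower in MN1 minus Gr1Mac (22 and 14), 2 and 1 in MN1VP16 minus Gr1Mac (9 and 4), and 0 and 2 in MN1VP16 minus MN1 (2 and 8). The sex term gave 9 lower in the first, 0 lower in the second, and 0 and 0 in the last. Over the 4 arrays compared the last 2 gave 2 and 1, and 0 and 4. Centring gave 7 lower and the intensity trend 2 lower in MN1VP16 minus Gr1Mac; the mean of all sets, and leaving out _x_at, _s_at and _a_at sets, each gave 1 higher in MN1VP16 minus MN1. Leaving out each array gave 12 to 25 and 5 to 13, 0 to 10 and 0 to 1, and 0 to 2 and 0 to 4.

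Differences that changed sign belonged to genes not called; those of Tyms and Upp1 below involve readings under the background guide. In MN1 minus Gr1Mac, centring gave Adss -0.18, Rrm2 -0.015 and Mthfd2 -0.069, and Rrm2 was -0.089 without _x_at, _s_at and _a_at sets; Adss ranged from -0.00474 to 0.17 over the arrays left out. In MN1VP16 minus Gr1Mac, Adss was 0.12 with the control split (-0.25 to 0.12), Tyms -0.20 with centring and -0.061 with quantile normalisation (-0.18 to 0.20), and Tk1 -0.020 with centring (-0.23 to 0.60). In MN1VP16 minus MN1 the sex term gave Umps 0.51, Gart 0.046, Gmps 0.093, Rrm2 -0.11, Tk1 0.40, Dck -0.86, Shmt2 0.52 and Mthfd1l 0.71; Umps was 0.010 with quantile normalisation and Upp1 0.083 with the control split. Over the arrays left out, Umps ranged from -0.34 to 0.19, Adss from -0.33 to 0.035, Tk1 from -0.79 to 0.035 and Upp1 from -1.11 to 0.083. The cause of these changes was not tested, except that settings with fewer arrays leave fewer degrees of freedom.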
